A study of Saccharomyces cerevisiae with 10 samples.

Results

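The 137 genes described here encode the proteins of the cytoplasmic ribosome of budding yeast, Saccharomyces cerevisiae. They were taken from the 7218 targets of the deposited tables by standard gene name in build R64: RPL or RPS followed by a digit, or RPP0, RPP1A, RPP1B, RPP2A or RPP2B. The rule uses names and no measured value, and the annotation gives a ribosomal protein as the product of all 137. RPL genes encode proteins of the large subunit, RPS genes those of the small subunit, and RPP genes the stalk of the large subunit, which recruits the elongation factors. In growing yeast these genes are among the most strongly transcribed by RNA polymerase II, and their transcription follows growth signals through the activators Rap1, Fhl1, Ifh1 and Sfp1. Most proteins are made from a pair of gene copies left by an ancient genome duplication, so that the balance between copies can shift while the protein stays the same or nearly so.

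Messenger RNA was sequenced from BY4743, a laboratory diploid, grown in rich medium (YPD) to mid-logarithmic phase at an OD600 of 0.5. The 10 libraries fall into 5 groups of 2 replicates: diploids carrying [ESI+], homozygous diploids without HOS2, without SET3 or without SNT1, and naive diploids that carry neither the state nor a deletion. [ESI+] is a protein-based heritable state that alters the expression of genes near telomeres, and Hos2, Set3 and Snt1 belong to the Set3 histone deacetylase complex. The design sets the state beside the loss of that complex, each against the same 2 naive libraries. The labels do not say whether replicates were separate cultures, how many clones each deletion strain stands for or when the state was introduced, so p-values here reflect spread among these libraries, which may be technical.

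The libraries held from 8327730 (set3 deletion, replicate 2) to 80651800 (set3 deletion, replicate 1) expected counts, which are estimated reads per target. HOS2, SET3 and SNT1 had 0 to 4 counts in the libraries labelled as lacking them and at least 3.97 CPM (counts scaled to library size) in every other library. The [ESI+] libraries stood apart in ways that touch every comparison below. Their mean fragment lengths were 163 and 172 bases, against 114 to 159 bases elsewhere, and reads at genes silent in other groups came to medians of 0.365 and 2.27 CPM per kilobase, against 0 to 0.0910. Their 10 meiotic genes summed to 22.7 and 39.3 CPM, against 13.1 to 17.5 CPM in the other 8 libraries, with none at 0. The 12 haploid-specific genes, which a diploid should repress, summed to 24.1 and 32.7 CPM in [ESI+] and 14.0 to 27.7 CPM elsewhere, and MF(ALPHA)1 was at 0 in 1 set3 library. With reads at silent genes subtracted, the median log2 fold change of the meiotic genes in [ESI+] against naive went from 1.27 to 0.12. That of the haploid-specific genes went from 0.26 to -0.45, and that of all genes from 0.093 to 0.049. The part of these lists in the results was not tested. Among the members, snt1 replicate 2 ranked the genes least like the rest, with a median Spearman correlation of 0.81 with the other 9 libraries over 137 genes, against 0.88 to 0.96 for the others.

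Genes whose names differ only in a last A or B were taken as copies of 1 protein, so that the 137 genes gave 78 proteins. Of these, 59 came from a pair of copies and 19 from a single gene. The rule also pairs RPP1A with RPP1B and RPP2A with RPP2B. Their coding sequences were only 68.9% and 74.0% identical, so these genes may not encode the same protein. Large-subunit and stalk genes number 81 and small-subunit genes 56, spread over 15 of the chromosomes. An intron splits the coding sequence of 89 members, and 2 of these have 2 introns, whereas 318 of all 6685 nuclear open reading frames have any. They are short: coding lengths ran from 78 bases (RPL41A and RPL41B) to 1164 bases, with a median of 432 bases against 1077 bases over all nuclear reading frames. Copies of a pair shared 68.9% to 99.4% of their coding bases, with a median of 93.2%. Because reads were assigned to coding sequences, 114 of the members had expected counts that were not whole (tolerance 0.001), which means that part of their reads was divided between targets. In 41 of the 59 pairs, over 75% of the 31-base words of each copy occur nowhere else among the targets, and statements on single copies below rest mainly on those. Strand is not mentioned in the labels, so reads of a member and of a gene overlapping it on the other strand cannot be told apart.

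RPL43A and its copy RPL43B, both of which encode the same large-subunit protein, show how far a pair can be told apart, and RPL43A had the lowest log2 fold change of all members in [ESI+] against naive. Their coding sequences of 279 bases, read from build R64 with introns removed, are printed with the 29 bases that differ between the copies in capitals. RPL43A lies at chrXVI:654166-654847 and RPL43B at chrX:608305-608858, both on the plus strand.
RPL43A: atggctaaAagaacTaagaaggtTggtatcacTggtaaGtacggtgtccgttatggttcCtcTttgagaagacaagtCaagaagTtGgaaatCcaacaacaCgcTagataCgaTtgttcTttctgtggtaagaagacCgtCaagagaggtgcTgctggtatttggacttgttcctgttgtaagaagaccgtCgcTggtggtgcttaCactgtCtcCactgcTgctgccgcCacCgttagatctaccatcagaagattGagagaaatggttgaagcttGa
RPL43B: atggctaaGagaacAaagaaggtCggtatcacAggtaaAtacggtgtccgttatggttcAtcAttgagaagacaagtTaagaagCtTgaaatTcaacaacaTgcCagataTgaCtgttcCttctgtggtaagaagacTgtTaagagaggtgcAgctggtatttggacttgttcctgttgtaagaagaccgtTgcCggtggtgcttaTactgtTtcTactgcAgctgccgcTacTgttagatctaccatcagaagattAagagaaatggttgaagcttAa
Differences are spread over the whole length, and 96.8% of the 31-base words of RPL43A are its own.

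Rap1 is the factor that marks most ribosomal protein promoters in yeast. Its short core ACCCNNACA, or the variant ATCCNNACA, was searched on both strands of the 600 bases before each start codon. At least 1 match stood before 93 of 137 members (67.9%), against 756 of all 5985 reading frames with such a window (12.6%). At least 2 matches stood before 21.9% of members and 1.49% of all. The matches before members lay at a median of 332 bases upstream of the start codon. A form of the Abf1 motif was found before 21.2% of members and 25.8% of all, and AAAAATTT before 27.7% of members and 22.6% of all. Stretches of 121 bases around the Rap1 matches are printed with the matches in capitals, for the RPL43 and RPL22 pairs, whose A copies had the smallest p among members in [ESI+] against naive. They come from build R64 at chrXVI:653887-654007 (plus strand), chrX:607960-608080 (plus), chrXII:262911-263031 (plus) and chrVI:65113-65233 (minus).
RPL43A promoter: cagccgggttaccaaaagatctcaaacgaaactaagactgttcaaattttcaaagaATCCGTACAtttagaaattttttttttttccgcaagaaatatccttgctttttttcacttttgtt
RPL43B promoter: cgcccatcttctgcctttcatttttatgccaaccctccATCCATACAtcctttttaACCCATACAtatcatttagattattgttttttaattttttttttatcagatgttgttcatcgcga
RPL22A promoter: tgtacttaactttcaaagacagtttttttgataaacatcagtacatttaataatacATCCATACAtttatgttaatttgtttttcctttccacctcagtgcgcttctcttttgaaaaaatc
RPL22B promoter: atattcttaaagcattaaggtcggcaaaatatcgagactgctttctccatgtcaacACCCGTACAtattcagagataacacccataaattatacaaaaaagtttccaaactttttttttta
Each stretch holds 1 match, except that of RPL43B with 2, and a match is a description of letters, not of binding.

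Ribosomal protein mRNA took a large share of the transcriptome in all groups, and the summed share was not lower in [ESI+] than in naive diploids. In TPM (a level corrected for length, rescaled over nuclear reading frames), the members summed to 34.4% and 31.1% in [ESI+], 39.4% and 35.0% without HOS2, 37.4% and 32.8% in the set3 deletion, 32.3% and 30.0% in the snt1 deletion, and 29.9% and 27.6% in naive diploids. Both naive libraries were the lowest of the 10, the replicates 1 of the hos2 and set3 deletions were the highest, and [ESI+] lay above naive and overlapped the deletions. As a share of expected counts, which favours long genes, the members took 15.3% and 14.0% in [ESI+], 15.4% to 19.4% in the deletions and 14.6% and 13.3% in naive diploids, so that [ESI+] and naive overlapped. In bulk cultures, fewer cells of a kind and less RNA per cell cannot be told apart.

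**Figure D1:**
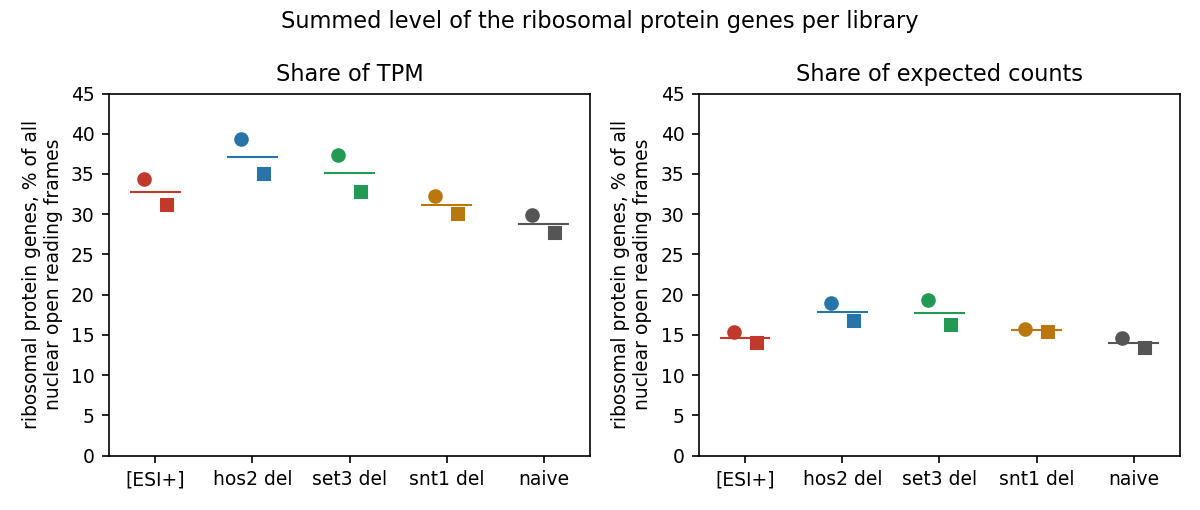
Summed level of the 137 ribosomal protein genes in each library, as a percentage of all nuclear reading frames, in TPM (left) and in expected counts (right). Circles are replicate 1, squares replicate 2 and lines the group means. In TPM the [ESI+] libraries sit at 34.4% and 31.1% and the naive ones at 29.9% and 27.6%.

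Single members differed widely in level. Mean TPM over the 10 libraries ran from 34.8 (RPL15B) to 12286 (RPL41A), with quartiles of 1379.9, 2120.4 and 3043, against a median of 9.84 over all nuclear reading frames. RPL41A and RPL41B, which encode a peptide at the bridge between the subunits, are so short that a length-corrected level depends strongly on fragment length, and RPL41A ranged from 2363 to 21152 TPM. Among those below it were RPS14A with a mean of 6938 TPM, RPP0 with 5711 and RPS12 with 5604, whose ranges over the libraries overlapped. At the low end, 3 members stayed under 100 TPM on average: RPL15B with 34.8, RPL22B with 42.2 and RPS9A with 72.9, each the minor copy of its pair. In 8 of 59 pairs the same copy took over 75% of the pair's reads in all 10 libraries. These were the A copies of RPL7, RPL15, RPL18, RPL22, RPS14 and RPS22 and the B copies of RPL36 and RPS9.

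In [ESI+] against naive diploids, ribosomal protein transcripts were low relative to the typical gene, led by RPL43A, RPL22A and RPL27B of the large subunit, RPP2B of the stalk and RPS11A and RPS21B of the small subunit. With TMM library sizes, a scaling that centres most genes on no change, 45 of 137 members fell and none rose, although with plain count sums, TPM or spike-in sizes the median of the members turned positive. Of all 6390 genes tested, 28.3% passed the same threshold, an adjusted p of at most 0.05 in the quasi-likelihood test of edgeR, adjusted by Benjamini-Hochberg over all genes, with 14.5% lower and 13.9% higher. The median log2 fold change was -0.73 over the members and 0.093 over all genes, with values from -2.29 (RPL43A) to 0.57 (RPL41B). Both [ESI+] libraries lay below both naive libraries for 111 of 137 members, against 32.5% of all genes, and below all 8 other libraries for 104, against 18.1%.

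The sign of the family's median depended on the scale. With plain sums the median was 0.040 for the members and 0.81 for all genes, with 10 members higher and 7 lower (39.8% and 3.85% of all genes). With limma on log2(TPM + 1), from the deposited TPM that are scaled over every target, the medians were 0.17 and 0.74. There 14 members were higher and 2 lower (41.5% and 2.9% of all genes). With spike-in library sizes they were 0.19 and 0.80, with 0 members called (0.282% of all genes higher and 0.219% lower). Spike-ins took 0.946% and 5.19% of expected counts in the [ESI+] libraries and 1.43% and 3.31% in the naive ones. Replicates of a group thus lay far apart on the spike-in scale. The members' median stayed below that of all genes in all 23 alternatives, by 0.28 when reads at silent genes and a trend with coding length were both removed, and by at most 0.98 without naive replicate 1. The number of calls rests on few libraries: leaving out [ESI+] replicate 2 gave 2 lower members (2.75% of all genes), and leaving out [ESI+] replicate 1 gave 23 (7.06% of all genes). Leaving out naive replicate 2 gave 15 (5.02%), and leaving out naive replicate 1 gave 59 (13.6%). Without [ESI+] replicate 2 the members' share of lower calls was thus not above that of all genes.

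**Figure D2:**
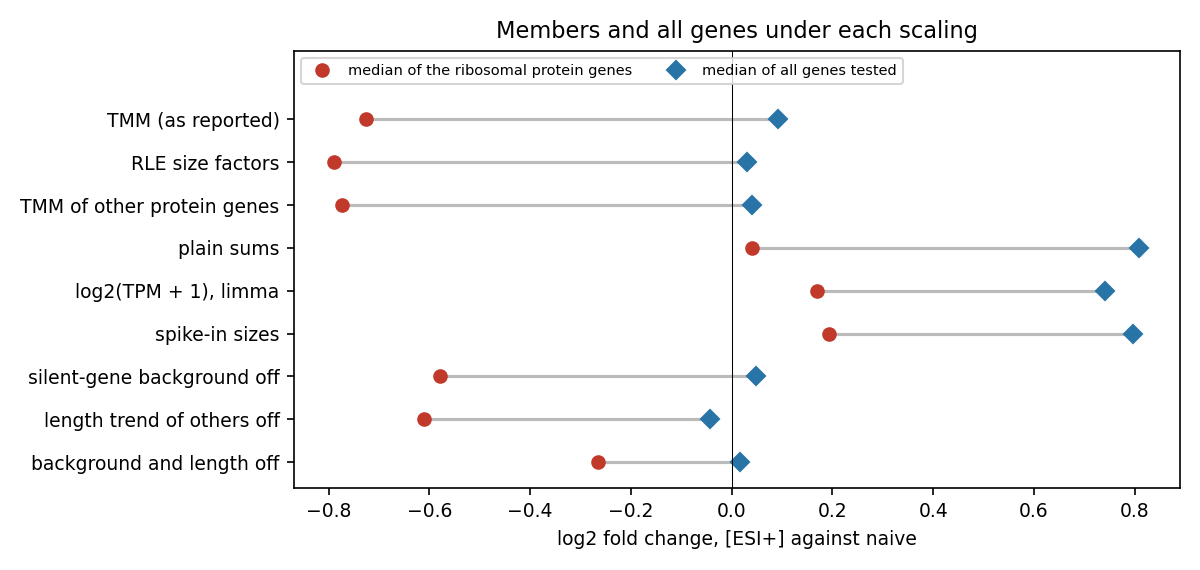
Median log2 fold change of [ESI+] against naive for the 137 ribosomal protein genes (circles) and all genes tested (diamonds) under 9 scalings. With TMM the medians are -0.73 and 0.093, with plain sums 0.040 and 0.81, and the members lie left of all genes in each.

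Members do not stand alone at their expression level. The 198 other genes with a mean CPM at or over the members' lower quartile had a median of -0.66, with 1 higher and 66 lower. Short coding sequences were also lower: medians were -1.28 for the 19 members of up to 300 bases (11 of them called lower), -0.73 for the 67 of over 300 and up to 500 bases (27 called) and -0.62 for the 51 longer ones (7 called). Other genes of the same length classes had medians of -0.35, -0.20 and 0.15. In the shortest class 57.9% of members and 23.1% of other genes were lower, in the middle class 40.3% and 22.4%, and in the longest class 13.7% and 12.4%, where the shares were close. Coding length and level thus moved with the result, as did the fragment lengths given above, whose part was not tested. With reads at silent genes subtracted 30 members were lower (13.8% of all genes), and with the length trend removed 24 (14.7% of all genes). With both removed 11 members were lower and 1 higher, against 11.9% and 9.06% of all genes, so that the share of lower members was not above that of all genes.

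The members were also divided by subunit, intron, Rap1 match and shared sequence. Medians were -0.73 for large-subunit and stalk genes and -0.63 for small-subunit genes, with 29 of 81 and 16 of 56 lower. Intron-containing members had a median of -0.76 with 35 of 89 lower, and the 48 without an intron -0.63 with 10 lower. Members with a Rap1 match had -0.72 with 27 of 93 lower, and those without one -0.73 with 18 of 44 lower. The 63 members with over 90% of their own 31-base words had -0.73 with 24 lower, and the 22 with under 50% had -0.55 with 3 lower. These differences between classes were not tested.

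Among large-subunit genes, RPL43A (YPR043W) had 236 and 196 CPM in the [ESI+] libraries, 667 to 1174 CPM in the 6 deletion libraries, and 1037 and 1067 CPM in the naive ones. Both [ESI+] libraries lay far below all others. The log2 fold change against naive was -2.29 ± 0.29 (SE, 2 libraries against 2; adjusted p = 0.000724). Its copy RPL43B (YJR094W-A) had 306 and 252 CPM in [ESI+], 187 to 493 CPM in the deletions, and 354 and 248 CPM in naive diploids. There the groups overlapped, with a log2 fold change of -0.11 ± 0.39 (adjusted p = 0.847).

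RPL22A (YLR061W, chromosome XII, 263194 to 263948, plus strand), the major copy for a protein at the surface of the large subunit, had 281 and 251 CPM in [ESI+], 845 to 1567 CPM in the deletions, and 771 and 1068 CPM in naive diploids. Again both [ESI+] libraries were below all 8 others, and the log2 fold change was -1.79 ± 0.29 (adjusted p = 0.00194). RPL22B (YFL034C-A, chromosome VI, 64243 to 64932, minus strand), the minor copy, whose intron the Rpl22 protein is known to bind, had 13.4 and 9.60 CPM in [ESI+], against 14.6 and 7.01 CPM in naive diploids. These values overlapped, with a log2 fold change of 0.065 ± 0.41 (adjusted p = 0.922). RPL43A and RPL22A are well told from their copies, with 96.8% and 100% of their 31-base words their own. These 2 members, and no others, were called lower in all of the fits with plain sums, with limma on TPM and without 1 library of these groups. RPL43A had -1.56 with plain sums and -1.34 with limma on TPM, and RPL22A had -1.02 and -0.86. With spike-in sizes they were -1.47 and -0.88, neither past the threshold (adjusted p = 0.829 for both).

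**Figure D3:**
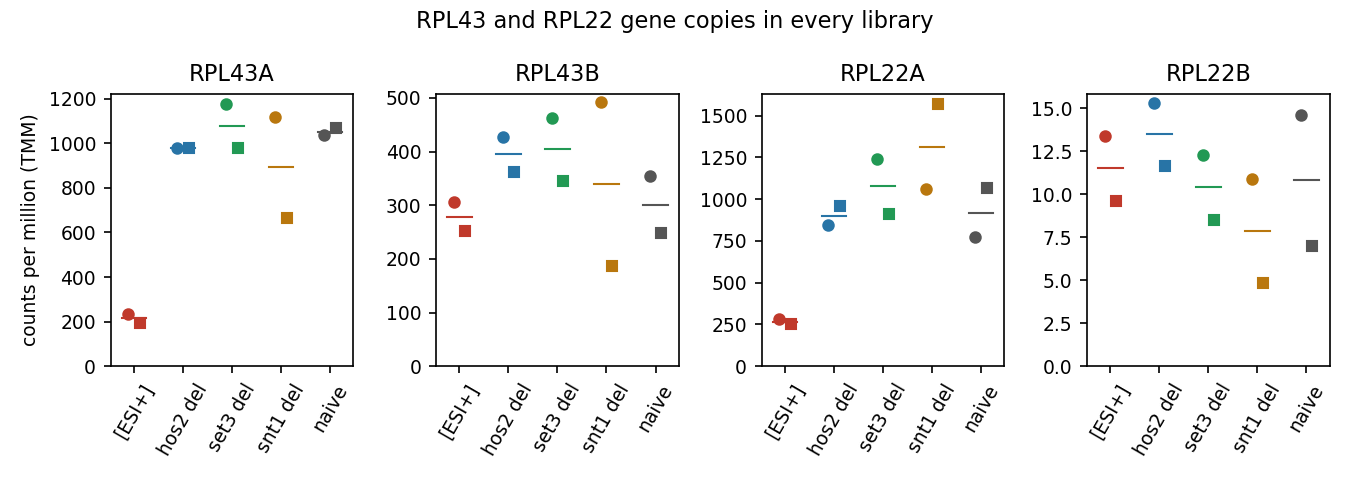
CPM (TMM library sizes, linear axes that differ between panels) of RPL43A, RPL43B, RPL22A and RPL22B in every library. Circles are replicate 1, squares replicate 2 and lines the group means. In [ESI+] RPL43A sits at 236 and 196 CPM and RPL22A at 281 and 251 CPM, below every other library, while the values of RPL43B and RPL22B overlap between [ESI+] and naive.

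Further large-subunit members were lower by smaller amounts. RPL27B had 199 and 165 CPM in [ESI+], against 406 and 519 CPM in naive diploids, a log2 fold change of -1.35 ± 0.25 (adjusted p = 0.00346). RPL33A, one of a pair whose copies both fell, had 174 and 121 CPM in [ESI+], against 482 and 389 CPM in naive diploids (-1.56 ± 0.34, adjusted p = 0.0076), and RPL33B had 80.4 and 59.1 CPM, against 142 and 126 CPM (-0.94 ± 0.22, adjusted p = 0.0105). None of these groups overlapped. RPL36B, the major copy, fell by 1.11 ± 0.24 (adjusted p = 0.00782), while RPL36A had -0.17 ± 0.24 (adjusted p = 0.639). RPL15B, the copy with the lowest level of all members, had 12.3 and 11.6 CPM in [ESI+] and 22.9 and 23.5 CPM in naive diploids (-0.96 ± 0.21, adjusted p = 0.00807), and the major copy RPL15A had -0.25 ± 0.26. RPL29, a single gene that yeast can live without, fell by 1.35 ± 0.30 (adjusted p = 0.0082), although naive replicate 1, with 467 CPM, lay well above naive replicate 2, with 260.0 CPM. RPL39, whose protein lines the exit tunnel for new polypeptides, fell by 1.69 ± 0.45 in [ESI+] (adjusted p = 0.0219), again with unequal naive libraries of 268 and 109 CPM.

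Small-subunit members showed the same range. RPS11A had 408 and 322 CPM in [ESI+], against 747 and 1062 CPM in naive diploids, and fell by 1.31 ± 0.28 (adjusted p = 0.00735), and its copy RPS11B fell by 1.08 ± 0.25 (adjusted p = 0.0102). RPS21B had 203 and 148 CPM in [ESI+], against 522 and 559.8 CPM in naive diploids, a log2 fold change of -1.62 ± 0.35 (adjusted p = 0.00747), beside -1.31 ± 0.37 for RPS21A (adjusted p = 0.0235). No [ESI+] library reached a naive one in either pair. RPS29A and RPS29B, which encode a zinc-binding protein of the small-subunit head, fell by 1.49 ± 0.32 (adjusted p = 0.00761) and 1.35 ± 0.38 (adjusted p = 0.023). RPS27A, the minor copy for another zinc-binding protein, had 60.5 and 43.8 CPM in [ESI+] and 104 and 107 CPM in naive diploids (-1.02 ± 0.23, adjusted p = 0.00829), and RPS27B had -0.78 ± 0.41 (adjusted p = 0.169). At the other end, 9 members had a positive log2 fold change on the TMM scale, none past the threshold, with RPL41B at 0.57 ± 0.35 (adjusted p = 0.236) the highest.

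The stalk genes were not alike. RPP0, the stalk's base, had 3502 and 3855 CPM in [ESI+], against 4728 and 6663 CPM in naive diploids (-0.63 ± 0.30, adjusted p = 0.133). RPP1B had 364 and 343 CPM, against 897 and 1091 CPM (-1.49 ± 0.35, adjusted p = 0.0109), and RPP2B 516 and 453 CPM, against 1149.9 and 1399 CPM (-1.40 ± 0.29, adjusted p = 0.00605). RPP1A had -0.63 ± 0.32 (adjusted p = 0.158) and RPP2A -0.89 ± 0.32 (adjusted p = 0.0585). For all 5 both [ESI+] libraries were below both naive libraries, and RPP1B and RPP2B passed the threshold. RPL40A, RPL40B and RPS31 encode ribosomal proteins fused to ubiquitin. They had log2 fold changes of -0.39 ± 0.33, -0.26 ± 0.26 and -0.43 ± 0.30, none past the threshold (adjusted p = 0.295 to 0.477), with [ESI+] below naive in each.

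On the TPM scale, where length and library composition enter differently, the order of the libraries was another. Both [ESI+] libraries lay below all 8 others for 11 members, against 2.72% of all genes, and above all 8 for 10 members, against 58.6% of all genes. The 11 below were RPL2A, RPL22A, RPL27B, RPL32, RPL33A, RPL43A, RPP1B, RPP2B, RPS11A, RPS11B and RPS21B. For RPL43A the TPM were 2143 and 1928 in [ESI+], 2732 to 6733 in the deletions, and 5185 and 4708 in naive diploids. For RPL22A they were 1598 and 1551 in [ESI+], 3169 to 3953 in the deletions, and 2575 and 2923 in naive diploids. The 10 above included RPS12, which was called lower with TMM and is thus a member whose direction rests on the scale.

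The share of a pair's reads that 1 copy takes does not depend on library scaling, and it set [ESI+] apart for some pairs. RPL43A took 43.6% and 43.7% of the RPL43 reads in [ESI+], 69.4% to 78.1% in the deletions, and 74.5% and 81.1% in naive diploids, so that RPL43B took the larger share in both [ESI+] libraries and in none of the other 8. RPP1A took 61.7% and 60.7% of the RPP1 reads in [ESI+], 41.2% to 49.8% in the deletions, and 48.3% and 44.7% in naive diploids. RPP1A and RPP1B were paired by name, share 68.9% of their coding bases and may not encode the same protein. RPL33A took 68.4% and 67.2% in [ESI+], 72.5% to 81.9% in the deletions, and 77.3% and 75.5% in naive diploids. In these 3 pairs, in which at least 94.8% of 31-base words are a copy's own, [ESI+] lay outside the range of the other 8 libraries. The shares are given as a description, without a test.

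Other pairs also had both [ESI+] libraries outside the range of the other 8. RPS10A took a mean of 63.3% in [ESI+], 71.6% in the deletions and 72.7% in naive diploids. RPS16A took 46.7% and 45.3% in [ESI+], and between 19.6% (snt1 replicate 2) and 42.7% elsewhere. RPL36A, the minor copy, took 12.9% and 13.4% in [ESI+] and 6.43% to 10.6% elsewhere. In all, both [ESI+] libraries lay outside the range of the other 8 in 15 of 59 pairs, against 10 pairs for the naive libraries, 6 for snt1, 3 for hos2 and 2 for set3. Of the 41 pairs that are well told apart, 12 did so in [ESI+] and 8 in naive diploids. Among pairs, both copies were called lower in [ESI+] against naive in 10, 1 copy in 21 and neither in 28. With the copies of each protein, as paired by name, summed, 22 of 78 were lower and none higher, against 14.6% of all genes lower.

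**Figure D4:**
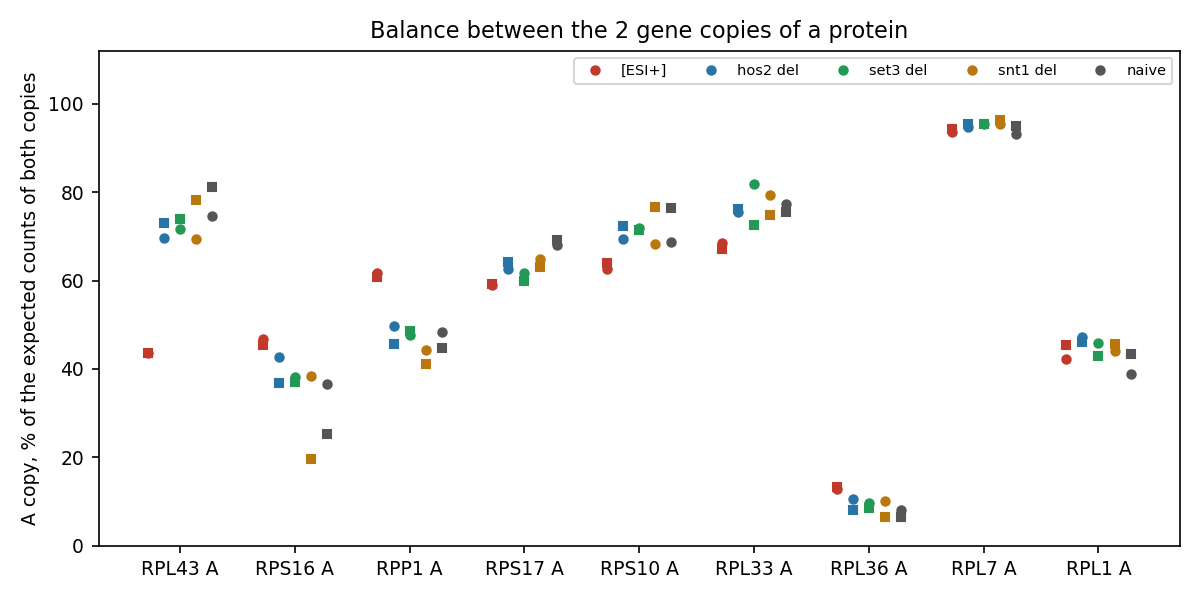
Share of a pair's expected counts taken by the A copy, in percent, in every library for 9 pairs. Circles are replicate 1 and squares replicate 2. RPL43A sits at 43.6% and 43.7% in [ESI+] and at 69.4% to 81.1% elsewhere, while RPL7 and RPL1 are pairs in which [ESI+] overlaps the other libraries.

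Loss of the Set3 complex's subunits moved no member past the threshold. In the hos2 deletion against naive diploids, 0 of 137 members were called, against 7.65% of all genes. The members' median was 0.016 and that of all genes 0.027, and 3 members had an unadjusted p under 0.05 (smallest adjusted p = 0.106). In the set3 deletion against naive, 0 members were called, against 2.5% of all genes, with medians of 0.19 and 0.0038 and 4 members at an unadjusted p under 0.05 (smallest adjusted p = 0.115). In the snt1 deletion against naive, 0 members were called, against 0.454% of all genes, with medians of 0.31 and -0.0044 and 12 members at an unadjusted p under 0.05 (smallest adjusted p = 0.298). DESeq2 called 0, 1 and 0 members in the hos2, set3 and snt1 comparisons. All 3 deletions were set against the same 2 naive libraries, so their values are given side by side only.

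RPS22B, the minor copy for a small-subunit protein and a gene with an intron before its start codon, had the smallest p among members in each deletion. It had 181 and 136 CPM without HOS2, 201 and 138 CPM in the set3 deletion, 185 and 154 CPM in the snt1 deletion, and 85.8 and 104 CPM in naive diploids. All 6 deletion libraries were above both naive ones, with log2 fold changes of 0.74 ± 0.26, 0.84 ± 0.26 and 0.84 ± 0.26, none past the threshold over all genes (adjusted p = 0.106, 0.115 and 0.298). In the [ESI+] libraries it had 83.7 and 67.5 CPM, below all of these. The highest value in the hos2 comparison was 0.82 ± 0.35 for RPL41B and the lowest -0.67 ± 0.28 for RPP2B. In the snt1 comparison RPL14A had 0.89 ± 0.37, from 1507 and 3264 CPM in the deletion, against 990.2 and 1583 CPM in naive diploids, and these overlapped. RPL39 was lowest with the set3 deletion (-0.65 ± 0.44) and the snt1 deletion (-0.83 ± 0.44).

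The median of the members against that of all genes was unstable for hos2, between -0.14 and 0.17 over the alternatives, and ran from -0.055 to 0.40 for set3 and from 0.17 to 0.49 for snt1. Without snt1 replicate 1, 7 members were called higher in the snt1 deletion, against 2.71% of all genes, and without snt1 replicate 2, the library least like the rest, 0 were.

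Set directly against the mean of the 3 deletions, [ESI+] had lower levels of most members. On the TMM scale 93 of 137 were lower and none higher, against 15.9% of all genes lower and 19.2% higher, although with spike-in library sizes the members' median turned to 0.27 (all genes 1.10) with 0 called (3.52% of all genes higher and 0.203% lower). The median was -0.85 for the members and 0.084 for all genes. For the 198 other genes with a mean CPM at or over the members' lower quartile it was -0.62, with 1 higher and 77 lower (38.9%). By coding length, 19.5% of other genes of up to 300 bases were lower. The shares were 22.2% for those of over 300 and up to 500 bases and 13.5% for longer ones. Among members of these classes they were 68.4%, 71.6% and 62.7%. Both [ESI+] libraries were below all 6 deletion libraries for 115 members, against 20.7% of all genes. The members' median stayed below that of all genes in all 27 alternatives, by 0.53 to 1.08. With plain sums 26 members were lower and 2 higher (3.54% and 48.7% of all genes), and with limma on TPM 14 and 2 (2.5% and 50.2%). Leaving out [ESI+] replicate 2 left 2 lower members (1.63% of all genes), leaving out [ESI+] replicate 1 left 41 (6.21%), and without snt1 replicate 2 there were 115 (20.3%).

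**Figure D5:**
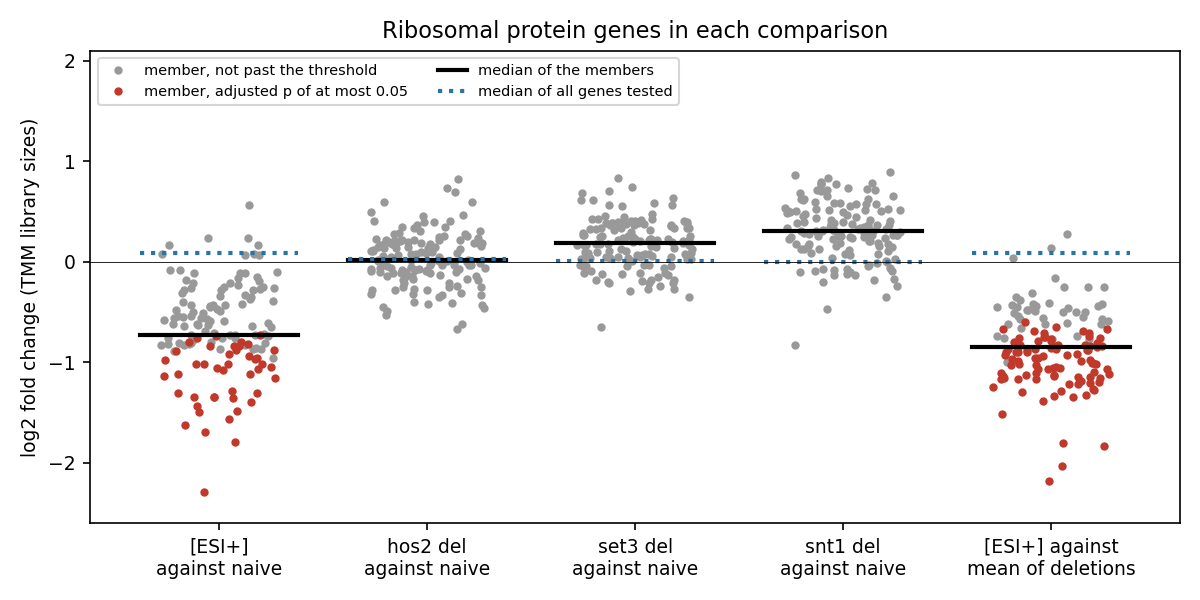
Log2 fold change of each of the 137 ribosomal protein genes in 5 comparisons with TMM library sizes (vertical axis). Red points passed an adjusted p of 0.05, solid bars are medians of the members and dotted bars medians of all genes tested. Members centre on -0.73 in [ESI+] against naive, on 0.016, 0.19 and 0.31 in the deletions, and on -0.85 in [ESI+] against the deletions, and with plain sums, TPM or spike-in sizes the first of these medians is positive.

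RPL43A and RPL22A led here too, with log2 fold changes of -2.18 ± 0.26 (adjusted p = 0.000335) and -2.03 ± 0.27 (adjusted p = 0.000512), and were the 2 members called in all 8 fits that left out 1 library of these groups. Next by p came RPL33A with -1.83 ± 0.30, RPL33B with -1.15 ± 0.19, RPL23A with -1.18 ± 0.20 and RPS21B with -1.80 ± 0.31 (adjusted p = 0.00162 to 0.00202). RPL23A had 413 and 349 CPM in [ESI+], against 769 to 964 CPM in the deletions, with no overlap. RPS22B, high in the deletions, was -1.13 ± 0.22 in [ESI+] against them (adjusted p = 0.00369). Of the stalk genes RPP0, RPP1B, RPP2A and RPP2B were lower, and RPP1A was not past the threshold (-0.62 ± 0.27, adjusted p = 0.092). The highest value was 0.28 ± 0.56 for RPL41A.

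Genes that regulate, escort or work with ribosomal proteins were set beside the members, whose difference from these lists was not tested. Of 21 regulators in [ESI+] against naive, 4 were higher and 1 lower, against 13.9% and 14.5% of all genes, with a median log2 fold change of 0.088. RAP1 had 0.86 ± 0.31 (adjusted p = 0.0587), FHL1 -0.38 ± 0.25 (adjusted p = 0.262), IFH1, the coactivator that Fhl1 recruits, -0.12 ± 0.20 (adjusted p = 0.667) and SFP1 0.25 ± 0.24 (adjusted p = 0.451). UTP22, a subunit of the CURI complex that binds Ifh1 away from promoters, rose by 1.18 ± 0.18 (adjusted p = 0.00156), and it alone of the called list genes kept its call in every fit without 1 [ESI+] or naive library. It also rose in the hos2 deletion by 1.22 ± 0.18 (adjusted p = 0.00406) and in the set3 deletion by 0.86 (adjusted p = 0.0335). With the length trend removed UTP22 had 0.60 in [ESI+] (adjusted p = 0.0403). TOR1, a kinase of the growth pathway, had 0.73 ± 0.20 (adjusted p = 0.0221), but -0.16 with the length trend removed. CKA1 and CKB1, subunits of casein kinase, had 0.98 ± 0.33 (adjusted p = 0.046) and -0.79 ± 0.21 (adjusted p = 0.0162), and ESA1, a histone acetyltransferase, had 0.88 ± 0.28 (adjusted p = 0.0389).

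Of 11 genes listed as chaperones of ribosomal proteins, some with other roles, 4 were higher and 2 lower in [ESI+], beside the same 13.9% and 14.5% of all genes. PUF6, which escorts Rpl43, rose by 0.87 ± 0.18 (adjusted p = 0.0068), and LOC1, its partner in that role, had 0.60 ± 0.40 (adjusted p = 0.279). ACL4, SYO1 and BCP1, which escort Rpl4, Rpl5 with Rpl11, and Rpl23, rose by 0.76, 1.17 and 0.75 (adjusted p = 0.0097, 0.0208 and 0.0218), while FAP7 and NAP1 were lower, with -0.96 and -1.27 (adjusted p = 0.049 and 0.0244). In the hos2 deletion PUF6 rose by 0.95 (adjusted p = 0.0129), and RRB1, which escorts Rpl3, rose by 0.96 there (adjusted p = 0.0147) and by 0.81 in the set3 deletion (adjusted p = 0.0498). Of 14 elongation and termination factors, none was higher and 3 were lower in [ESI+] against naive, beside 13.9% and 14.5% of all genes. The lower ones were CAM1, ANB1 and TEF2, with -1.26, -1.45 and -1.09 (adjusted p = 0.0111, 0.0244 and 0.0497). TEF2 had -0.94 with reads at silent genes subtracted (adjusted p = 0.083). TEF1, with the same coding length of 1377 bases, had -0.63 (adjusted p = 0.24), and how reads divide between TEF1 and TEF2 was not tested. The list's median was -0.53 on the TMM scale and 0.28 with plain sums. Against the deletions 5 of the 14 were lower and 1 higher (15.9% and 19.2% of all genes), with a median of -0.73. ANB1 was also lower in the hos2 deletion, with -2.21 (adjusted p = 0.0153), and in the set3 deletion, with -2.30 (adjusted p = 0.026). No gene of these 3 lists was called in the snt1 deletion. In [ESI+] against naive with plain sums or limma on TPM, none of the lower genes of these 3 lists kept its call, while the higher ones did. On these scales 39.8% and 41.5% of all genes were higher, and 3.85% and 2.9% lower, so a kept higher call says little there. With the length trend removed CKA1, ESA1, SYO1 and FAP7 lost their calls (adjusted p = 0.0516 to 0.0694), as did TOR1.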

How the data were processed

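Per the submitters' processing notes, reads were assigned with kallisto 0.44 to targets of genome build R64. The deposited expected counts are estimated reads per coding sequence without normalization, and the deposited TPM are scaled by the authors over every target, with spike-ins and ribosomal RNA, per the file headers. The authors' effective lengths gave the mean fragment length. Per the labels' protocols, ERCC spike-ins were added, cDNA was primed at poly(A) tails on beads and then sheared, and paired ends were read. Depth, 8327730 to 80651800 expected counts, limits the precision of the shallower libraries most.

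Expected counts were rounded and spike-ins set aside, and filterByExpr kept 6390 genes, all 137 members among them. edgeR 4.0.16 (R 4.3.3) fitted a robust quasi-likelihood model with TMM library sizes and 1 coefficient per group over all 10 libraries. Tests were two-sided, with Benjamini-Hochberg adjustment over all genes at 0.05. The SE of a log2 fold change is its absolute value divided by sqrt(F). CPM use TMM library sizes, and TPM were rescaled over 6685 nuclear reading frames, except in the limma fits. Those took the deposited TPM, scaled over every target. The fit was also run on simulated counts with known changes of random sign. Its outcome is not given here and does not bear on the choice of scaling. DESeq2 1.42.0 and limma 3.58.1 (log2 of TPM plus 1) served in alternatives, and log2 values are from these fits.

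Members follow from gene names alone, but the family and the gene lists were chosen with earlier results of these data known. Named members are the 12 (6 in other comparisons) with the smallest p per direction among those called with non-overlapping libraries, the extremes, the stalk and ubiquitin-fusion genes, and the copies of all these. RPL1, RPL2A, RPL7, RPL18, RPL32, RPS9A, RPS10A, RPS12, RPS14A and RPS16A, and the pairs they belong to, were named after their values were seen. Of the lists, up to 5 called genes per comparison were named, and RAP1, FHL1, IFH1 and SFP1 always. LOC1 and TEF1 were named beside PUF6 and TEF2.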

Additional observations from a re-analysis of the deposited data

Results flagged for a closer look

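For 27 of the 38 members named by rule, the effect of [ESI+] against naive differed from the mean effect of the 3 deletions against naive. The threshold was an adjusted p of 0.05 in edgeR's quasi-likelihood test. The naive libraries cancel in this difference, which is therefore the direct comparison of [ESI+] with the deletions, on the TMM scale. In that comparison 93 of all 137 members (67.9%) and 35.1% of all genes tested were called, so the share among named members was near that of all members. Since many of the 27 were named for their low p among lower members, their common negative sign follows from the choice. The largest were -2.18 ± 0.26 for RPL43A (adjusted p = 0.000335) and -2.03 ± 0.27 for RPL22A (adjusted p = 0.000512), log2 with SE, from 2 libraries against 6. The other large-subunit members had -1.83 for RPL33A, -1.29 for RPL27A, -1.26 for RPL14A, -1.21 for RPL27B, -1.18 for RPL23A, -1.15 for RPL33B, -1.05 for RPL29, -1.11 for RPL14B, -0.90 for RPL15B, -0.88 for RPL36B and -0.78 for RPL23B. The small-subunit members had -1.80 for RPS21B, -1.34 for RPS11A, -1.33 for RPS29A, -1.29 for RPS21A, -1.20 for RPS29B, -1.16 for RPS11B, -1.21 for RPS27B, -1.13 for RPS22B, -1.07 for RPS27A and -0.75 for RPS22A. The stalk members had -1.51 for RPP1B, -1.16 for RPP2B, -0.96 for RPP2A and -0.79 for RPP0. Adjusted p for these others ran from 0.00162 to 0.0335.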

How the results depend on the processing

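In [ESI+] against naive, 45 members called, all lower, became 75 with DESeq2 and 0 with spike-in sizes. With limma on log2(TPM + 1) they became 16, of which 14 were higher and 2 lower. They became 22 of 78 with copies summed, 8 of 23 without shared reads, 24 with the length trend removed and 12 with background also removed. With plain sums 10 members were higher and 7 lower. All genes called were 1810 of 6390 in the reported fit, 2051 with DESeq2 and 1373 with the length trend removed. They were 2837 with limma, 32 with spike-in sizes and 2791 with plain sums. They were 1793 of 6331 with copies summed, 1560 of 5012 without shared reads and 1317 of 6282 with background also removed. Chosen after seeing the data were a length trend of other genes (25), plain sums (17) and plain sums without [ESI+] replicate 2 (2). In [ESI+] against the deletions, 93 of 137, all lower, became 0 with spike-in sizes and 16 with limma (2 higher and 14 lower). They became 52 of 78 with copies summed and 12 of 23 without shared reads. They became 33 with background and length trend removed and 28 with plain sums (2 higher and 26 lower). In this comparison all genes called were 2240 of 6390 in the reported fit and 2164 of 6331 with copies summed. They were 238 with spike-in sizes, 3370 with limma and 3336 with plain sums. They were 1866 of 5012 without shared reads and 1656 of 6282 with background and length trend removed. With plain sums without [ESI+] replicate 2 the members' median was -0.13 (all genes 0.66). Calls of 0 became 1 for hos2 with limma, with background and length trend removed and with plain sums, and 1 for set3 with DESeq2, with only the groups compared and with the block. Without naive replicate 2 and snt1 replicate 2 together they were 2 for hos2, 2 for set3 and 1 for snt1.

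Leaving out each library in turn gave 2 to 59 calls in [ESI+] against naive, 2 to 115 against the deletions, 0 for hos2, 0 for set3 and 0 to 7 for snt1. A lone library is there assumed to vary like the other groups.

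With spike-in sizes, 27 of the 93 members called lower in [ESI+] against the deletions kept a negative sign, and 110 of 137 members were positive. Among the named members called there, the sign turned for RPL14B (0.0077), RPL15B (0.18), RPL23B (0.31), RPL29 (0.13), RPL33B (0.021), RPL36B (0.25), RPP0 (0.23), RPP2A (0.12), RPS22A (0.38) and RPS27A (0.12). With limma 81 of the 93 kept a negative sign, and of the named ones among them RPS22A turned (0.029). Against naive, 35 of the 45 members called lower kept a negative sign with limma. There 98 of 137 members were positive, against 9 with TMM. RPL36A, not called against naive with TMM, turned to 0.79. Replicate numbers were not shown to pair the samples: deviations of same-numbered libraries correlated by -0.047 to 0.47 between groups, although every group correlated best with same-numbered libraries. With the number as a replicate block, 62 members were called in [ESI+] against naive, 101 against the deletions, 0 for hos2, 1 for set3 and 0 for snt1. Of all 6390 genes the block gave 2335, 2771, 848, 403 and 59 calls in the same order. The cause of these changes was not tested. Other settings left the counts within 1.5 times the reported ones. Depth and 2 libraries per group limit what a missing call can show.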
